A study of Homo sapiens with 11 samples.

Results

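The interaction of PLX4720 and bevacizumab was measured gene by gene in A375 melanoma xenografts, that is, by how much expression under both drugs together departed from the sum of the changes under each drug alone. The members were all 14886 human genes detected above background on at least 1 array, of 20046 genes with a probe, and all 11 arrays of the series were used. A375 is an established human melanoma cell line with mutant BRAF, implanted here under the skin of CD1 female athymic mice that were 6 weeks old, so that the tumor cells were human and the vessels, fibroblasts and leukocytes came from the host. RNA of frozen tumors was taken after 12 days of treatment and hybridized to human bead arrays, 1 array per tumor. Vehicle mice (3 arrays) received methylcellulose. PLX4720 mice (3 arrays) received 60 mg/kg daily by gavage, bevacizumab mice (3 arrays) received 10 mg/kg by intraperitoneal injection 3 times per week, and COMBO mice (2 arrays) received both drugs at those doses. All tumors came from 1 cell line, and athymic mice lack mature T cells, so neither other melanomas nor T cell responses were represented.

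PLX4720 blocks the mutant BRAF kinase, which drives proliferation in melanoma through MEK and ERK. Bevacizumab is an antibody that captures human VEGF-A, the factor that tumor cells secrete to recruit vessels, and it binds mouse VEGF-A poorly. Low oxygen stabilizes the HIF transcription factors, which induce VEGFA and genes of glucose metabolism, and this ties the targets of both drugs to each other. A factorial design with both drugs, each drug alone and neither can show whether the response of a gene to 1 drug depends on the presence of the other.

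For each gene the interaction was COMBO minus PLX4720 minus bevacizumab plus vehicle, on log2 arm means. It equals the PLX4720 effect with bevacizumab (COMBO minus bevacizumab) minus the PLX4720 effect without it (PLX4720 minus vehicle). A value of 0 means that the fold changes of the drugs multiplied, a positive value that COMBO lay above that product and a negative value that it lay below. Errors given with a log2 difference are standard errors from the limma fit over all 4 arms. A gene was called where its p, adjusted by the Benjamini-Hochberg method across all 14886 genes, was below 0.05.

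Arrays detected between 19767 and 21952 of 47323 probes. The melanocyte regulators MITF, SOX10 and PAX3 were detected on all 11 arrays, whereas 5 of 9 melanocyte markers, the pigment genes TYR, TYRP1, DCT and MLANA together with S100B, were detected on none. The spread within an arm was unequal, with a median SD per gene (log2) that was lowest in COMBO (0.159) and vehicle (0.195) and higher in bevacizumab (0.337) and PLX4720 (0.445). On the first principal component (34.1% of the variance) PLX4720 replicate 1 lay farthest out, at 84.75. PLX4720 replicates 2 and 3 lay at 36.95 and 0.08 there, and the 8 other arrays between -50.35 and 15.37. PLX4720 replicate 3 and bevacizumab replicate 1 stood apart from the other arrays on the second principal component, at -75.4 and -37.5 against a range of -20.3 to 29.8 for the other 9. PLX4720 replicate 2 differed in another respect: the median of a 16-gene list of transcripts that respond to RNA handling and dissociation stress was 1.15 above the vehicle mean there, against -0.58 and -0.39 in PLX4720 replicates 1 and 3 and -0.22 to 0.10 on the 8 other arrays. Counts of called genes were repeated with each array left out, and other readings only without the arrays named with them. In whole tumors, fewer cells of a type and less RNA per cell cannot be told apart.

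A single gene, IPO7, passed the test for an interaction, 1 of 14886 genes (0.00672%), and none passed in the negative direction. IPO7 encodes importin 7, a receptor that carries ribosomal proteins and other cargo into the nucleus. Its log2 expression was 9.46, 9.68 and 9.92 on the vehicle arrays, 7.11, 6.97 and 6.27 on the PLX4720 arrays, 8.77, 9.21 and 8.70 on the bevacizumab arrays, and 9.58 and 9.38 on the COMBO arrays. The 3 PLX4720 arrays lay below all 8 others, and the COMBO arrays lay within or next to the vehicle range. IPO7 fell 7.49-fold under PLX4720 alone (a log2 difference of -2.91, adjusted p = 0.00109 by limma), whereas with bevacizumab present its PLX4720 effect was 0.59 and did not pass (adjusted p = 0.737). The interaction was 3.49 ± 0.40, with a 95% interval of 2.62 to 4.37 (adjusted p = 0.0398 by limma), which corresponds to an 11.3-fold departure from the product of the single-drug folds. Seen from the other drug, bevacizumab moved IPO7 by -0.79 without PLX4720 and by 2.70 with it, and IPO7 was the only gene called for the effect of bevacizumab in the presence of PLX4720 (adjusted p = 0.0279 by limma).

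The single IPO7 probe was detected on all 11 arrays. Under all 24 alternative settings its interaction was positive, between 2.41 and 3.70, but it passed the test in only 10 of them, with adjusted p between 0.01 and 0.594. Leaving out any vehicle, bevacizumab or COMBO array, or PLX4720 replicate 1, ended the call (adjusted p by limma from 0.0502 to 0.594), as did leaving out PLX4720 replicate 3 and bevacizumab replicate 1 together (adjusted p = 0.107).

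Of 24 importins and exportins tested, a list drawn up after IPO7 was seen, no other passed the test. Of the 23 others, 5 (21.7%) had an unadjusted p below 0.05, a threshold that 5.54% of all genes passed. The interaction was positive for XPOT, the tRNA exporter (3.01 ± 1.02), XPO7 (1.27 ± 0.40), KPNB1, the importin beta that most import complexes use (1.16 ± 0.50), and KPNA2 (1.13 ± 0.36, with 0.10 at a second probe), and it was negative for IPO13 (-1.44 ± 0.58). IPO8, the closest relative of IPO7, gave 0.07 ± 0.43. The interval of IPO8, which extends 0.95 to either side, does not reach the IPO7 value.

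**Figure D1:**
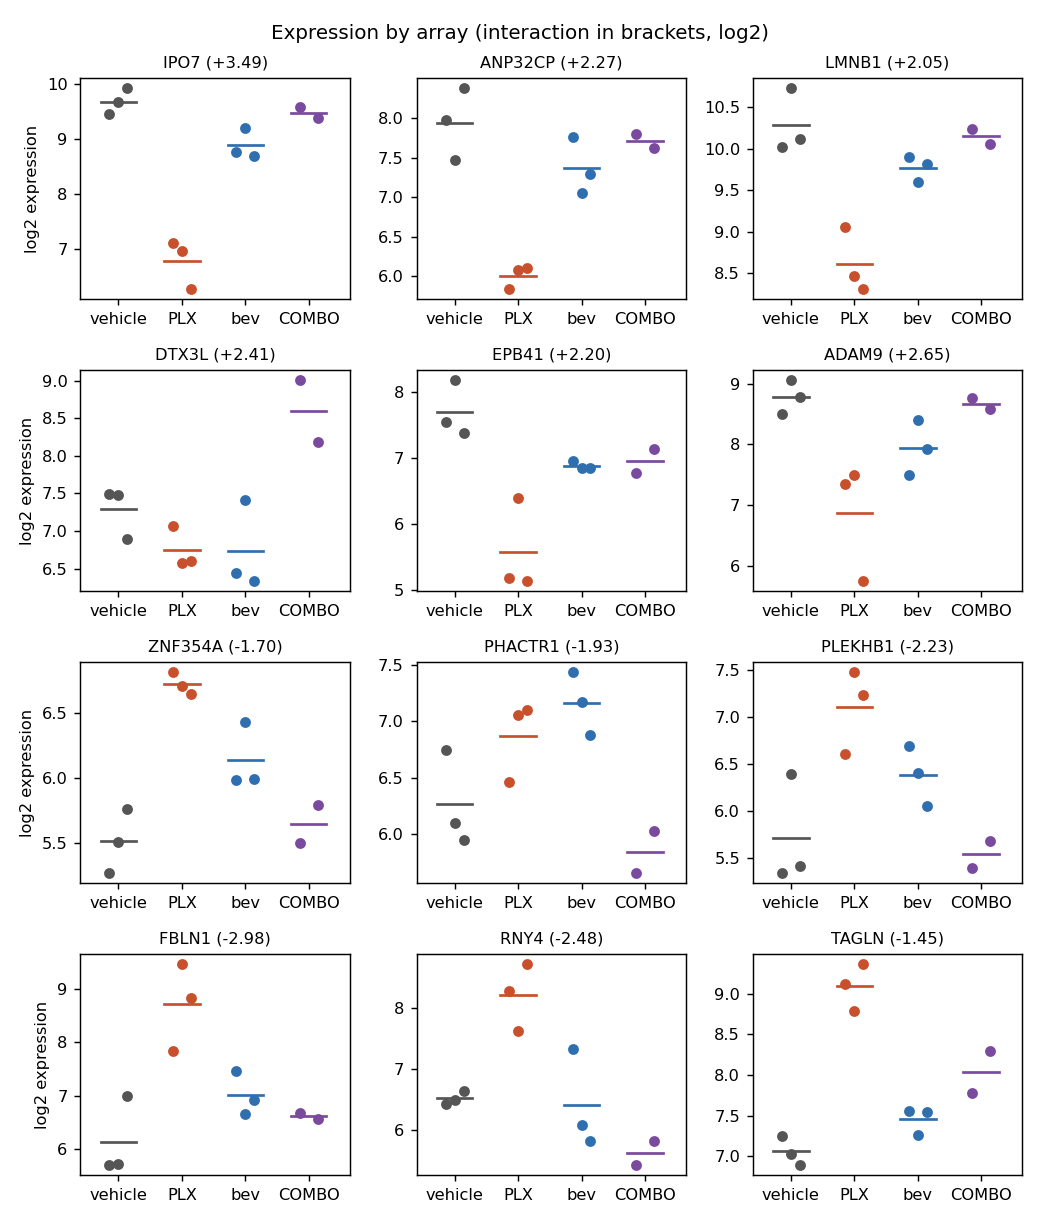
Log2 expression on each of the 11 arrays for 12 genes named among the smallest interaction p values, with 6 positive interactions above and 6 negative ones below. Points are arrays, bars are arm means and the number in brackets is the interaction. PLX4720 is the arm that stands apart for IPO7, ANP32CP and LMNB1, whereas COMBO is the arm that stands apart for DTX3L, where its arrays lie at 9.01 and 8.19 and all others at or below 7.49.

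Beyond IPO7 the distribution of interactions was broad and nearly centred. The median over all genes was -0.05, with quartiles of -0.40 and 0.29. At an unadjusted p below 0.05 there were 824 genes (5.54%), 419 positive (2.81%) and 405 negative (2.72%), where 5% is the share such a threshold gives in the absence of any effect. At the limits used in the study's methods, an unadjusted p below 0.01 together with a log2 difference of 1 or more, 157 genes (1.05%) passed, 86 positive (0.578%) and 71 negative (0.477%). Over the 24 alternative settings the share at an unadjusted p below 0.05 lay between 3.3% (491 genes, without COMBO replicate 1) and 12.2% (1823 genes, without PLX4720 replicate 2), and without PLX4720 replicate 2 the methods' limits were passed by 621 genes. The precision was limited, since an interaction combines the errors of all 4 arms. Its standard error was 1.5 times that of PLX4720 minus vehicle, and the median 95% half-width was 0.98. For 2660 genes (17.9%) the whole interval lay within a log2 difference of 1 on either side of 0, and for the remainder an interaction of that size was not excluded by the interval.

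Among genes detected in every arm, the positive interactions with the smallest p after IPO7 were those of ANP32CP and LMNB1, and both shared a low PLX4720 arm. ANP32CP, a pseudogene of the ANP32 family of acidic nuclear proteins, was at 7.97, 7.47 and 8.37 in vehicle, 5.84, 6.08 and 6.11 in PLX4720, 7.76, 7.05 and 7.30 in bevacizumab and 7.79 and 7.62 in COMBO, an interaction of 2.27 ± 0.41 that did not pass (adjusted p = 0.811 by limma). LMNB1, which encodes lamin B1 of the nuclear lamina, was at 10.01, 10.72 and 10.12 in vehicle, 9.06, 8.47 and 8.31 in PLX4720, 9.90, 9.59 and 9.81 in bevacizumab and 10.24 and 10.05 in COMBO. For both genes the PLX4720 arrays lay below all others, and both fell under PLX4720 alone, by 1.93 and 1.67 on the log2 scale (adjusted p = 0.00688 and 0.0121). The LMNB1 interaction was 2.05 ± 0.40 and did not pass (adjusted p = 0.84).

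The PLX4720 arm also had the lowest mean for the RNA-binding protein gene HNRNPA3 (interaction 2.44 ± 0.58), the membrane metalloprotease gene ADAM9 (2.65 ± 0.63) and EPB41, which encodes protein 4.1 of the membrane skeleton (2.20 ± 0.51). A second EPB41 probe, detected on 9 arrays like the first, gave 1.92. The myotubularin phosphatase gene MTMR1 (2.18 ± 0.47) and the zinc finger gene ZKSCAN8 (1.75 ± 0.37) were about equally low under either drug alone and near vehicle under both. Dimmer probes of these genes, each detected on 4 arrays, gave 0.05 for MTMR1 and 0.95 for ZKSCAN8. For TNRC6C, a silencing partner of Argonaute proteins, the probes disagreed, with 1.79 ± 0.42 at its brightest probe, detected on 8 arrays, and -0.53 at a dimmer one, detected on 5. Part of the PLX4720 arm was at background for some of these genes, since the brightest probe was detected on 1 of 3 PLX4720 arrays for EPB41, ZKSCAN8 and TNRC6C and on 2 for ADAM9, so the sizes there are uncertain. The ZKSCAN8 probe was detected on 7 arrays in all, so arrays outside the PLX4720 arm were at background as well. None of these 6 passed, with adjusted p of 0.84 for each.

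DTX3L had another shape. It encodes a ubiquitin ligase that acts with PARP9 in the interferon and DNA damage responses. Its values were 7.49, 7.48 and 6.89 in vehicle, 7.06, 6.58 and 6.60 in PLX4720, 6.44, 7.42 and 6.33 in bevacizumab, and 9.01 and 8.19 in COMBO, so that both COMBO arrays lay above all 9 others. The interaction of 2.41 ± 0.51 did not pass (adjusted p = 0.84).

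Among negative interactions the mirror image was common, a gene that was high under PLX4720 alone and near vehicle under COMBO. ZNF354A, a zinc finger gene, had the smallest p of those detected in every arm and was at 5.27, 5.50 and 5.76 in vehicle, 6.81, 6.70 and 6.64 in PLX4720, 5.98, 6.43 and 5.99 in bevacizumab and 5.50 and 5.79 in COMBO (interaction -1.70 ± 0.33, adjusted p = 0.84 by limma). FBLN1, which encodes the matrix glycoprotein fibulin 1, was at 5.70, 5.70 and 6.98 in vehicle, 7.84, 9.47 and 8.83 in PLX4720, 7.47, 6.65 and 6.91 in bevacizumab and 6.67 and 6.55 in COMBO. FBLN1 rose 6.00-fold under PLX4720 alone (adjusted p = 0.0169), its PLX4720 effect with bevacizumab was -0.40, and the interaction was -2.98 ± 0.67. A second FBLN1 probe detected on all arrays gave -0.48. TAGLN, which encodes the actin-binding protein transgelin of smooth muscle and activated fibroblasts, rose by 2.04 under PLX4720 alone (adjusted p = 0.00261) against 0.59 with bevacizumab, an interaction of -1.45 ± 0.35, and its 2 dimmer probes, detected on 4 arrays and on 1, gave -0.20 and -0.03.

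Of the remaining negative interactions, RNY4, a small Y RNA of the Ro particle (-2.48 ± 0.59), ARHGAP25, a regulator of Rac (-1.60 ± 0.41), and GTPBP2, a GTP-binding protein gene (-2.07 ± 0.48), were also highest under PLX4720 alone. PHACTR1, a regulator of phosphatase 1 and actin (-1.93 ± 0.43), ZNF705G (-1.76 ± 0.39) and TRIM3, a ubiquitin ligase gene (-1.28 ± 0.33), had means above vehicle with either drug and near or below vehicle with both. C1GALT1C1L (-1.85 ± 0.42) and SLC9A5, a sodium-proton exchanger gene (-1.63 ± 0.40), were lower on both COMBO arrays than on all other arrays. PLEKHB1, highest under PLX4720 alone, gave -2.23 ± 0.50. None of the 12 negative interactions named here passed, at adjusted p between 0.84 and 0.869. RNY4, ANP32CP and HNRNPA3 belong to families with near-identical copies in the genome, which their probes may not separate, and this was not tested.

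Across the 419 positive interactions at an unadjusted p below 0.05, PLX4720 was the arm whose mean lay farthest from the mean of the other 3 arms in 262 (62.5%), and across the 405 negative ones in 215 (53.1%), beside 39.5% of all genes. COMBO was that arm in 16.9% and 24.4%, beside 22.7%. These counts describe genes chosen on the same values. Without PLX4720 replicate 2 the shares for PLX4720 were 78.9% and 71.7%, beside 47.6% of all genes, and without PLX4720 replicate 3 and bevacizumab replicate 1 they were 62.4% and 61.7%, beside 45.3%. Both COMBO arrays lay above all 9 other arrays for 150 genes (1.01%) and below all of them for 269 (1.81%). The shares that arise in the absence of any effect were not computed, so these counts do not show expression particular to COMBO.

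The PLX4720 effect itself could be read a second time, since PLX4720 minus vehicle and COMBO minus bevacizumab share no array. Of the 14886 genes, 212 rose (1.42%) and 127 fell (0.853%) under PLX4720 alone, 2.28% in all, whereas 35 rose (0.235%) and 19 fell (0.128%) with bevacizumab present, 0.363% in all and from 1 array fewer. The 212 rises, with a median of 1.92 in the arrays that chose them, had a median of 1.43 in the arrays with bevacizumab, and 201 of them (94.8%) were again positive, beside 50.05% of all genes. The 127 falls had a median of -1.55, and with bevacizumab of -0.58, where 103 (81.1%) were again negative, beside 49.95% of all genes. In the reverse reading, the 35 rises and 19 falls called with bevacizumab had medians of 2.90 and -1.55 under PLX4720 alone, and all kept their sign. The call was made both times for 44 genes, 32 higher and 12 lower. Across all genes the PLX4720 effects had a Pearson correlation of 0.458 and a Spearman correlation of 0.258, given as a description since genes are not independent replicates.

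The reading of the falls changed when PLX4720 replicate 2 was left out. Without that array 383 genes fell under PLX4720 alone, and only 194 of them (50.7%) were also negative with bevacizumab, with a median of -0.02. That share is near the 49.95% of all genes that were negative there. Of 456 rises, 349 (76.5%) kept their sign, beside 50.05% of all genes. Without PLX4720 replicate 3 in its place the shares were 86.3% of 262 falls and 90.6% of 470 rises. This reading was not made without PLX4720 replicate 1. The RNA handling list that was high in PLX4720 replicate 2 moves with this difference between arrays, and its part in it was not tested.

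**Figure D2:**
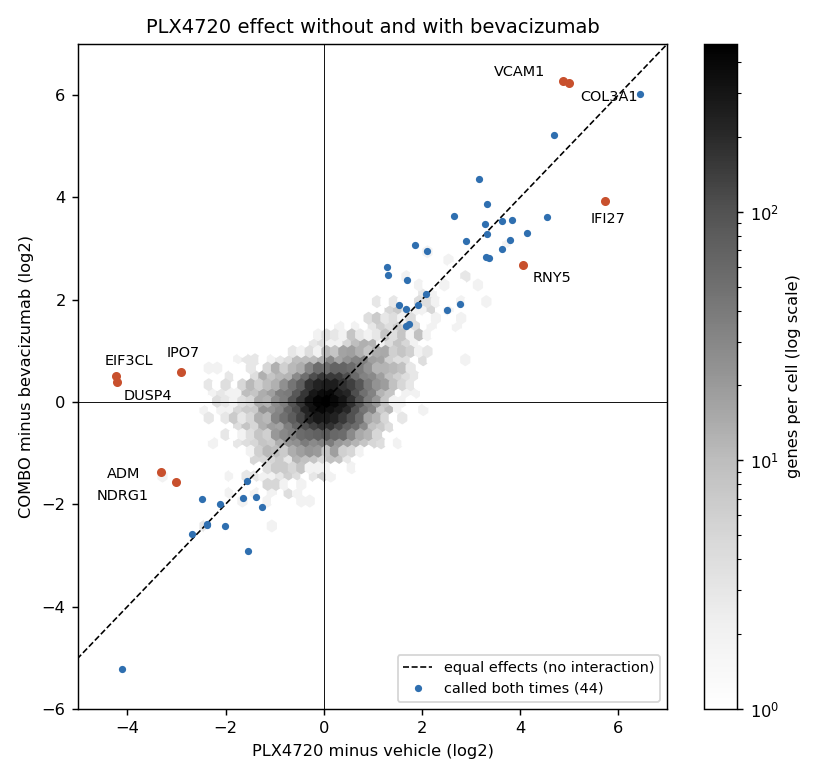
PLX4720 effect without bevacizumab (x axis, PLX4720 minus vehicle, log2) against the effect with bevacizumab (y axis, COMBO minus bevacizumab, log2) for 14886 genes, with shading for the number of genes per cell on a log scale. The dashed line marks equal effects, blue points are the 44 genes called both times and orange points are named genes. IPO7, DUSP4 and EIF3CL lie far left of 0 on the x axis and near 0 on the y axis, whereas VCAM1 (4.87 and 6.27) and COL3A1 (5.01 and 6.24) lie near the line.

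Among called genes detected in every arm, the 10 strongest rises under PLX4720 alone were also large when bevacizumab was present. These genes were chosen on PLX4720 minus vehicle, which is a part of the interaction, so the interactions given for them and for the 10 strongest falls are descriptions. VCAM1, an adhesion molecule that binds leukocytes, was at 8.31, 7.48 and 7.41 in vehicle, 13.69, 12.27 and 11.86 in PLX4720, 6.04, 5.98 and 6.32 in bevacizumab and 12.29 and 12.48 in COMBO. It rose 29.3-fold under PLX4720 alone and 77.1-fold with bevacizumab (adjusted p = 0.000902 and 0.000393 by limma). The arms with PLX4720 and those without it did not overlap. At this probe the interaction was 1.40 ± 0.63 (adjusted p = 0.869) and bevacizumab lay below vehicle, whereas 2 dimmer VCAM1 probes, detected on 8 and 6 arrays, gave interactions of -0.30 and 0.60, so the probes disagreed in sign. COL3A1, the type III collagen chain, rose by 5.01 and 6.24, and PRG4, the lubricating proteoglycan of joints, rose by 4.69 and 5.22. The muscle and tendon transcription factor MKX rose by 3.80 and 3.16 and the vasoactive peptide gene UTS2 by 4.56 and 3.61, each called both times. IFI27, an interferon-induced gene (5.74 and 3.93), the neuropeptide gene NTS (4.44 and 5.21), the cadherin gene CDH10 (3.95 and 2.86), TMTC1 (3.90 and 3.08) and the Y RNA gene RNY5 (4.07 and 2.67) were called without bevacizumab and did not pass with it, at adjusted p between 0.0806 and 0.198. The probes of COL3A1, PRG4, NTS and TMTC1 were detected on 1 of 3 bevacizumab arrays, so the size of their rise with bevacizumab is uncertain. Those of PRG4 and NTS were detected on 8 arrays in all, so background was not confined to the bevacizumab arm. The lowest vehicle values were 5.22 for PRG4 and 5.34 for NTS, and the size of their rise under PLX4720 alone is uncertain too. Interactions of these 10 genes ranged from -1.81 for IFI27 to 1.40 for VCAM1.

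The 10 strongest falls were a more mixed group. NAT16, a gene of the acetyltransferase family, fell by 2.69 without and by 2.59 with bevacizumab and was called both times, with an interaction of 0.10 ± 0.51. PAEP, the secreted lipocalin glycodelin, had effects of -3.03 and -3.55, and DEPP1, a target of FOXO transcription factors, had -3.34 and -2.08, each called only without bevacizumab. ADM and NDRG1 are described with the hypoxia genes. For the 5 others the effect with bevacizumab was under 1 in size. EIF3CL, a near-identical copy of the translation factor gene EIF3C, had -4.24 without and 0.52 with bevacizumab, DUSP4 had -4.22 and 0.40, ENSA, an inhibitor of phosphatase 2A in mitosis, had -2.60 and 0.02, CAMK2N1, an inhibitor of CaM kinase II, had -2.66 and -0.64, and IPO7 had -2.91 and 0.59. The interactions were 4.75 ± 1.41 for EIF3CL, 4.61 ± 1.44 for DUSP4, 2.62 ± 0.72 for ENSA and 2.03 ± 0.67 for CAMK2N1, none of which passed (adjusted p = 0.869). A second ENSA probe, detected on all arrays, gave 2.52. A second DUSP4 probe, detected on 8 arrays, gave 0.58, and the separate probe of EIF3C gave -0.05 ± 0.36.

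Both of the largest interactions came from low values in PLX4720 replicates 1 and 3. The DUSP4 product is a phosphatase induced by ERK signaling that dampens it. DUSP4 was at 4.59, 9.60 and 5.97 on PLX4720 arrays 1 to 3, against 9.59 to 11.50 on the 8 other arrays. EIF3CL was at 5.34, 9.71 and 5.29 on the PLX4720 arrays and at 9.50 to 11.47 on the others. In both cases PLX4720 replicate 2 overlapped the other arms. The EIF3CL probe was detected on 1 of 3 PLX4720 arrays, so its low values lie at background. The DUSP4 probe was detected on 2 of 3, so only part of its low values do. The falls and interactions of both genes therefore have no exact size. With PLX4720 replicate 2 left out, 30 genes were called for the interaction, 28 positive and 2 negative, DUSP4, EIF3CL and IPO7 among them.

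**Figure D3:**
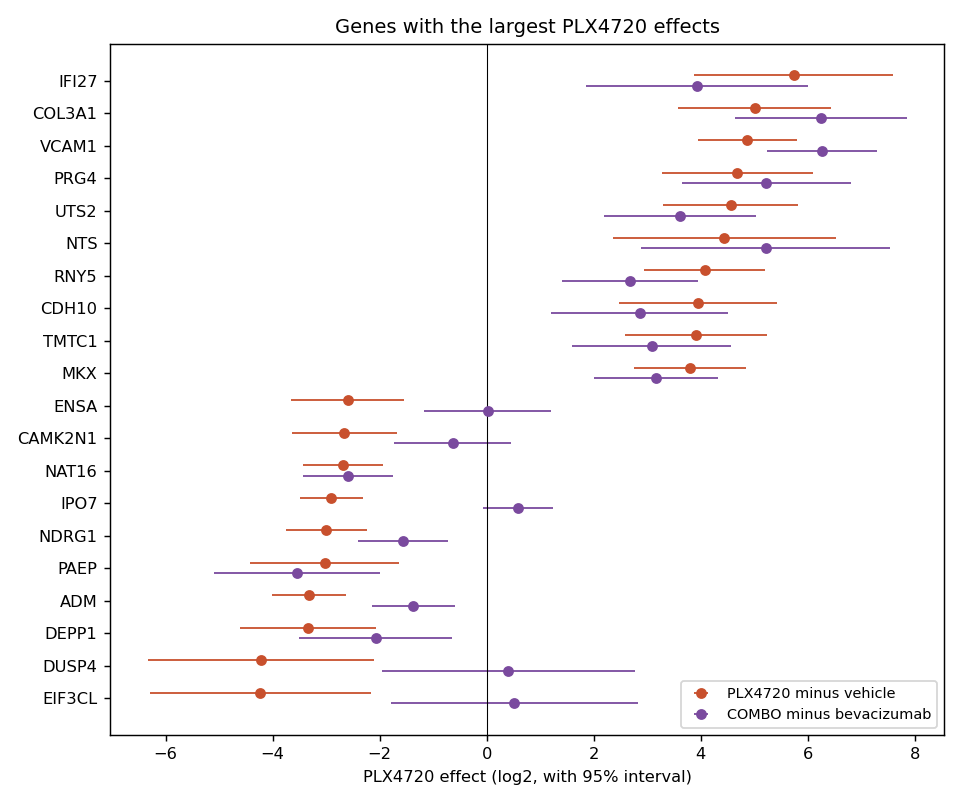
PLX4720 effect (log2, with 95% interval) without bevacizumab (orange) and with bevacizumab (purple) for the 10 largest rises and 10 largest falls among genes called for PLX4720 minus vehicle, detected in every arm and without overlap of the PLX4720 and vehicle arrays. The intervals of all 10 rises overlap between the contrasts, from IFI27 at 5.74 and 3.93 to MKX at 3.80 and 3.16, whereas the effects of IPO7 are -2.91 and 0.59.

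Genes induced by low oxygen had the highest median interaction of the 29 gene lists examined. PLX4720 alone gave this list of 33 genes a median of -1.15, and 16 members fell, beside 0.853% of all genes. With bevacizumab the median was -0.83 and 1 member fell, beside 0.128% of all genes. That member was HILPDA, a lipid droplet protein gene (-2.47 without and -1.89 with bevacizumab). The lower number of calls was not a test of a difference. No member passed the test for the interaction. Its median was 0.41, beside -0.05 for all genes, 23 of 33 members (69.7%) were above 0, beside 46% of all genes, and 5 were positive at an unadjusted p below 0.05 with none negative, beside 2.81% and 2.72% of all genes. These were ADM, which encodes the vasodilator peptide adrenomedullin (1.95 ± 0.47), VEGFA (1.52 ± 0.38), NDRG1, a stress-response gene (1.44 ± 0.52), and, named after their values were seen, DDIT4, an inhibitor of mTORC1 (1.08 ± 0.44), and BNIP3, a mitophagy receptor gene (1.06 ± 0.39).

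ADM was at 13.51, 13.64 and 13.88 in vehicle, 10.15, 9.84 and 11.07 in PLX4720, 13.59, 13.72 and 13.77 in bevacizumab and 12.67 and 11.96 in COMBO. It fell 10.0-fold under PLX4720 alone (adjusted p = 0.00121 by limma) and its effect with bevacizumab was -1.38 (adjusted p = 0.181). COMBO thus lay between PLX4720 and the arms without it, with no overlap. VEGFA, the target of bevacizumab, was at 9.63, 9.88 and 9.84 in vehicle, 8.21, 7.47 and 8.29 in PLX4720, 9.45, 9.98 and 9.70 in bevacizumab and 9.50 and 9.36 in COMBO. It fell 3.46-fold under PLX4720 alone (adjusted p = 0.00761), while with bevacizumab its effect was -0.28 (95% interval -0.90 to 0.35), and a second VEGFA probe gave an interaction of 1.14. NDRG1 was at 14.68, 14.95 and 15.06 in vehicle, 11.70, 11.20 and 12.78 in PLX4720, 14.82, 14.91 and 15.00 in bevacizumab and 13.53 and 13.16 in COMBO. For all 3 genes the bevacizumab arm differed from vehicle by less than 0.1 on the log2 scale, so the interaction was nearly the whole difference between COMBO and PLX4720.

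The difference was not shared by every hypoxia gene. The glucose transporter gene SLC2A1 had an interaction of 0.09 ± 0.51, the hexokinase gene HK2 0.11 ± 0.37 (-0.40 at a second probe), the collagen hydroxylase gene P4HA2 0.04 ± 0.35 (0.12 and 1.49 at dimmer probes) and the enolase gene ENO2 -0.22 ± 0.68, although each fell under PLX4720 alone. On single arrays the median of the list, relative to vehicle, was -1.10, -1.30 and -1.05 in PLX4720, -0.08, 0.15 and 0.06 in bevacizumab and -0.67 and -0.86 in COMBO, so that PLX4720 lay lowest and COMBO lay between it and the arms without PLX4720, which overlapped each other. The count of 5 became 2 without COMBO replicate 1 or with median scaling in place of quantile normalization, and 7 positive with 3 negative without PLX4720 replicate 2, and the median stayed between 0.12 and 0.56 across the 24 settings. The related list of 19 glycolysis genes had a median interaction of 0.04 with no member at an unadjusted p below 0.05.

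**Figure D4:**
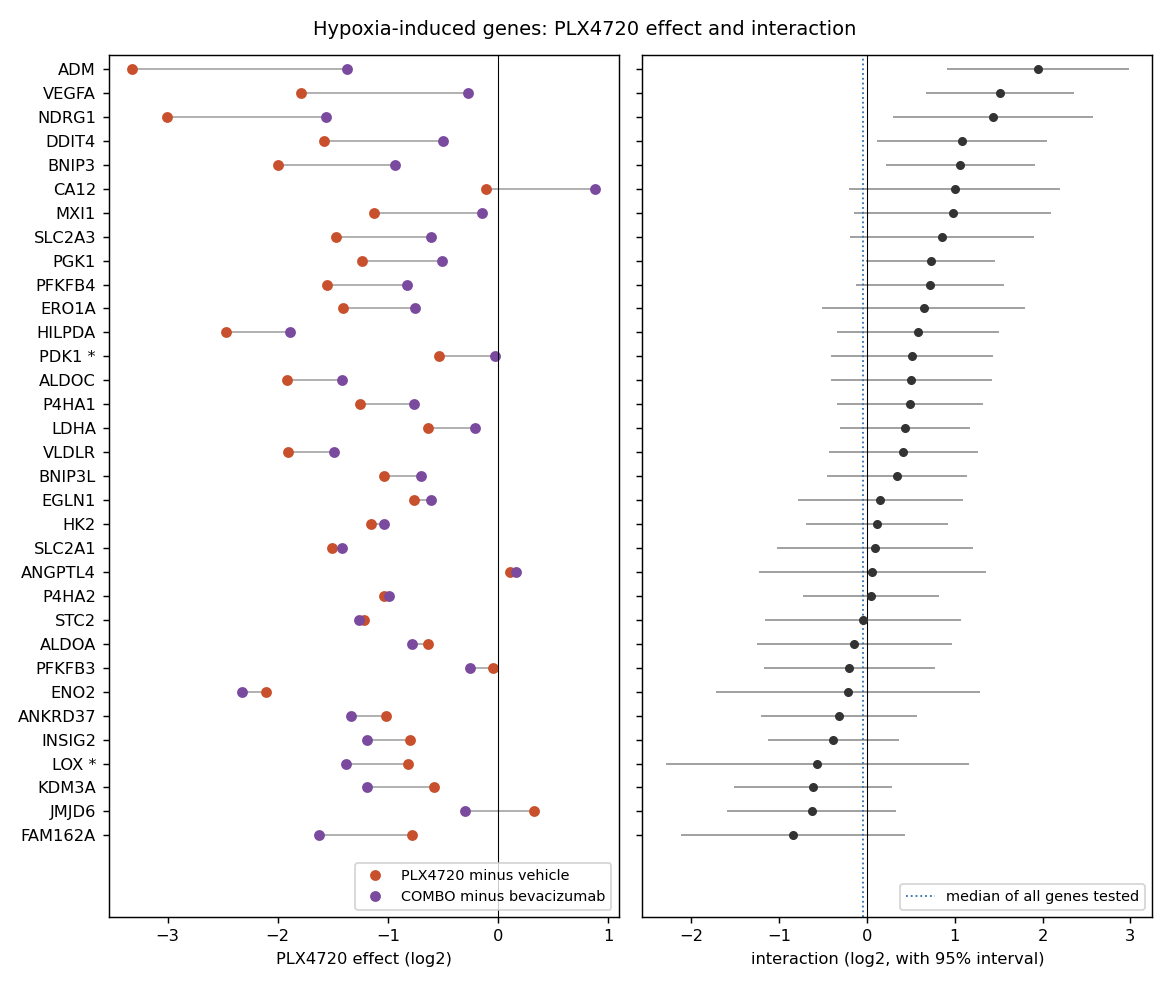
The 33 hypoxia-induced genes, ordered by interaction. The left panel shows the PLX4720 effect (log2) without bevacizumab (orange) and with it (purple), the right panel the interaction (log2) with its 95% interval, and an asterisk marks the 2 genes undetected in at least 1 arm. The interactions run from -0.84 for FAM162A to 1.95 for ADM, and the intervals of 5 genes lie above 0.

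HIF binds DNA at a short core, and ACGTG was the only form of it searched for here. The letters upstream of the 3 of these 5 genes that had an entry in the RefSeq promoter table (GRCh38.p14) are shown. Each ACGTG, or CACGT on the other strand, is in capitals. ACGTG lies within the 250 bases before the annotated start of BNIP3, where it is read on both strands in the overlapping palindrome CACGTG, and of DDIT4. It does not lie within that window of ADM, where other forms of the core were not searched for. The stretches are chr10:131981924-131982173 on the minus strand for BNIP3, chr10:72273674-72273923 on the plus strand for DDIT4 and chr11:10304823-10305072 on the plus strand for ADM.
BNIP3: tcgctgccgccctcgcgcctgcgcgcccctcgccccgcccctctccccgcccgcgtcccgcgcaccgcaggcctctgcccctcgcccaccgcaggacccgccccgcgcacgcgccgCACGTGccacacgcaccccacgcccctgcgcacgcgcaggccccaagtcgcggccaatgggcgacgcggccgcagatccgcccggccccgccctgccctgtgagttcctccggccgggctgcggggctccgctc
DDIT4: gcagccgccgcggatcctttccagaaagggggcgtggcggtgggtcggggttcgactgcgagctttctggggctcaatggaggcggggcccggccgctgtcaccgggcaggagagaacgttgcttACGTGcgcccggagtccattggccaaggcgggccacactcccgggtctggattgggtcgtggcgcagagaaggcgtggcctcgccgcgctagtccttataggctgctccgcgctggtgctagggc
ADM: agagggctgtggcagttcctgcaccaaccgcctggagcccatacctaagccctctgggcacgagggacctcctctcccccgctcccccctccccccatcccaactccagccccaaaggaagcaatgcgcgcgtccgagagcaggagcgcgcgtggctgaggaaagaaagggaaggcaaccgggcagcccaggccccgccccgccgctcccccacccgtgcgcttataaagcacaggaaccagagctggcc
Of the 33 members of the list, 27 had an entry, and 16 of these (59.3%) held ACGTG on either strand in the 250 bases, beside 5101 of 27305 promoters (18.7%). A match of these letters is a description and does not show that a factor was bound.

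Cell cycle genes had the next highest medians. In the list of 32 mitosis genes the median interaction was 0.33 and 27 members (84.4%) were above 0, beside 46% of all genes. None passed, and 3 members (9.38%), all positive, had an unadjusted p below 0.05, beside 5.54% of all genes. These were the centrosomal kinase gene NEK2 (1.16 ± 0.34, with 0.80 at a second probe), the cyclin gene CCNA2 (0.95 ± 0.29) and CENPA, the histone variant of centromeres (0.75 ± 0.33). CCNA2 was at 11.15, 11.23 and 11.48 in vehicle, 10.33, 10.18 and 10.27 in PLX4720, 11.07, 11.34 and 11.02 in bevacizumab and 11.14 and 10.99 in COMBO. NEK2 and CCNA2 fell under PLX4720 alone, by 1.06 and 1.03, and had PLX4720 effects of 0.10 and -0.08 with bevacizumab, and their COMBO arrays lay within or next to the vehicle range. The median of the list stayed between 0.18 and 0.52 across settings, with 1 to 7 positive members at that p.

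In the 31 replication genes the median was 0.24, between 0.02 with median scaling and 0.33 over the settings. RFC3, of the clamp loader (1.13 ± 0.45), MCM4, of the replicative helicase (1.12 ± 0.47), and RRM2, of ribonucleotide reductase (1.88 ± 0.81), had an unadjusted p below 0.05, which is 9.68% of the list beside 5.54% of all genes. None of the 3 had it without bevacizumab replicate 1, vehicle replicate 3 or COMBO replicate 1. A second RFC3 probe, nearly as bright and detected on all arrays, gave -0.02, and another, detected on 10 arrays, gave -1.01, whereas a second MCM4 probe gave 1.27. For MCM4 the values under PLX4720 were 10.83, 12.10 and 11.07, so that replicate 2 lay within the range of the other arms, 11.72 to 12.38, and replicates 1 and 3 lay below it.

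Genes of ERK output had interactions of both signs. The median over 39 genes was 0.02 with a range of -1.36 to 4.61, beside PLX4720 effects of -0.07 without and 0.16 with bevacizumab. At an unadjusted p below 0.05 there were 4 members (10.3%, beside 5.54% of all genes). DUSP4 was the only positive one, and EPHA4, an ephrin receptor gene (-1.32 ± 0.51), PTPRR and EGR3 were negative, although PTPRR and EGR3 were undetected in at least 1 arm and have no fold. DUSP6, a feedback phosphatase of ERK, gave -0.00 ± 0.37 at its brightest probe, with a 95% interval of -0.82 to 0.81, and 1.29 at a second probe detected on all arrays. SPRY4, a feedback inhibitor upstream of RAS, gave -0.85 ± 0.44 at its brightest probe and 1.33 at a second one, so the probes of both genes disagreed. CCND1, the cyclin of cell cycle entry, gave 0.72 ± 0.44.

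Receptor tyrosine kinases had the lowest median of the 29 lists, -0.39, with 20 of 25 members below 0 (80%, beside 54% of all genes). EPHA4 and FGFR4 were negative and DDR2, a collagen receptor gene (0.96 ± 0.34), was positive at an unadjusted p below 0.05. Together they were 12% of the list, beside 5.54% of all genes. FGFR4 was undetected in at least 1 arm. EPHA4 was at 6.73, 6.85 and 6.09 in vehicle, 8.71, 7.57 and 7.34 in PLX4720, 7.03, 7.02 and 6.97 in bevacizumab and 7.05 and 6.94 in COMBO, and the PLX4720 arrays lay above all others. The growth factor receptor gene PDGFRA gave -1.65 ± 0.95 (-0.33 at a second probe) and the insulin receptor gene INSR -0.91 ± 0.52. Over the 24 settings the median of the list lay between -0.64 and -0.15.

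Interferon-stimulated genes were high under PLX4720 whether or not bevacizumab was present, and no member passed the test for a difference. Their median PLX4720 effect was 1.91 without and 1.73 with bevacizumab. Of 44 members, 25 were called higher without it, beside 1.42% of all genes, and 1 with it, beside 0.235%. That member was ISG15, the ubiquitin-like modifier, which rose by 3.37 and 2.81 (adjusted p = 0.00261 and 0.0204 by limma). The fall in the number of calls was not a test of a difference. The median interaction was -0.21, 29 of 44 members (65.9%) were below 0, beside 54% of all genes, and none had an unadjusted p below 0.05 in either direction. For ISG15 the interaction was -0.56 ± 0.57, with a 95% interval of -1.82 to 0.70, and those with the smallest p were IFITM1 (-1.04 ± 0.61), DHX58 (-0.80 ± 0.49) and IFITM2 (-0.56 ± 0.36). Without PLX4720 replicate 3 and bevacizumab replicate 1, the median was -0.58 and 6 members were negative at that p. The chemokine gene CXCL10, which interferon induces, rose by 3.30 and 2.84, called both times, with an interaction of -0.46 ± 0.59.

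Among 29 cytokine and chemokine genes the median interaction was 0.10. IL11, a cytokine of the IL6 family, was the only member at an unadjusted p below 0.05 (2.07 ± 0.70). It was at 11.51, 11.65 and 11.53 in vehicle, 8.27, 10.34 and 9.64 in PLX4720, 11.73, 11.49 and 11.80 in bevacizumab and 10.97 and 12.22 in COMBO. IL11 fell under PLX4720 alone (-2.15, adjusted p = 0.0405) and had an effect of -0.08 with bevacizumab, where the COMBO arrays differed by more than a log2 unit. The monocyte chemokine gene CCL2 had effects of 3.61 and 3.26 and an interaction of -0.36 ± 1.00. In the NF-kB list of 25 genes the median was 0.06 and VCAM1 was the only member at that p.

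Matrix genes had a smaller median PLX4720 effect with bevacizumab than without it, although few members had an interaction at an unadjusted p below 0.05. For 28 collagens the median PLX4720 effect was 0.80 without and 0.31 with bevacizumab, but the median interaction was 0.00, with 14 members on either side of 0. A median of differences need not equal the difference of medians. COL9A2 had the strongest negative interaction of the list (-2.18 ± 0.67), with 8.21, 7.89 and 7.86 in vehicle, 10.50, 9.51 and 9.96 in PLX4720, 9.65, 7.58 and 8.31 in bevacizumab and 8.16 and 8.52 in COMBO. COL15A1 was negative at an unadjusted p below 0.05 as well but undetected in at least 1 arm. Of the main fibrillar collagens, COL1A1 gave 0.29 ± 0.71 and COL3A1 1.24 ± 0.98, the latter against a bevacizumab arm mostly at background.

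Among 41 matrix glycoprotein and adhesion genes the median was -0.19. FBLN1, THBS4, a thrombospondin gene (-2.30 ± 0.79), and LAMB2, a laminin gene (-1.57 ± 0.58), were negative and NID1, the nidogen of basement membranes (1.16 ± 0.40), was positive at an unadjusted p below 0.05. Together they were 9.76% of the list, beside 5.54% of all genes. TIMP1, an inhibitor of matrix proteases, gave -0.99 ± 0.36 and was the only one of 28 protease and crosslinker genes at that p, and LTBP4, which holds latent TGF-beta in the matrix, gave -1.23 ± 0.51 in the TGF-beta list and 0.69 at a second probe, detected on 9 arrays. LOX, the collagen crosslinker, was undetected on both COMBO arrays, and TGFB1 was detected on 1 vehicle array alone, so neither has an interaction fold.

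The fibroblast marker list, which on a human array can hold expression by tumor cells as well as mouse transcripts that cross-hybridize, had a median PLX4720 effect of 1.87 without and 0.59 with bevacizumab. Its median relative to vehicle was 2.06, 1.73 and 1.13 on the PLX4720 arrays, -0.37, -0.52 and -0.41 on the bevacizumab arrays and 0.72 and 1.24 on the COMBO arrays. The median interaction over its 13 members was 0.11, with a range of -0.33 to 0.46 over the settings, and TAGLN alone had an unadjusted p below 0.05. DCN, the proteoglycan decorin, gave 1.20 ± 0.57 and was called both times, with rises of 1.87 and 3.06, whereas a second DCN probe, detected on 10 arrays, had PLX4720 effects of 1.38 and 0.98 and an interaction of -0.40. COL1A1, COL3A1 and DCN are members of both the fibroblast and the matrix lists, and the part that host RNA played was not tested. Of 12 defining fibroblast markers, 7 were detected on all 11 arrays and THY1 on none. Endothelial and leukocyte markers had median interactions of 0.01 and -0.12. Of 7 defining endothelial and pericyte markers, 2 (PECAM1 and CSPG4) were detected on all 11 arrays and 3 (CDH5, VWF and KDR) on none. Of 8 defining leukocyte markers, 3 (CD68, CSF1R and AIF1) were detected on all 11 arrays and 2 (PTPRC and TYROBP) on none.

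**Figure D5:**
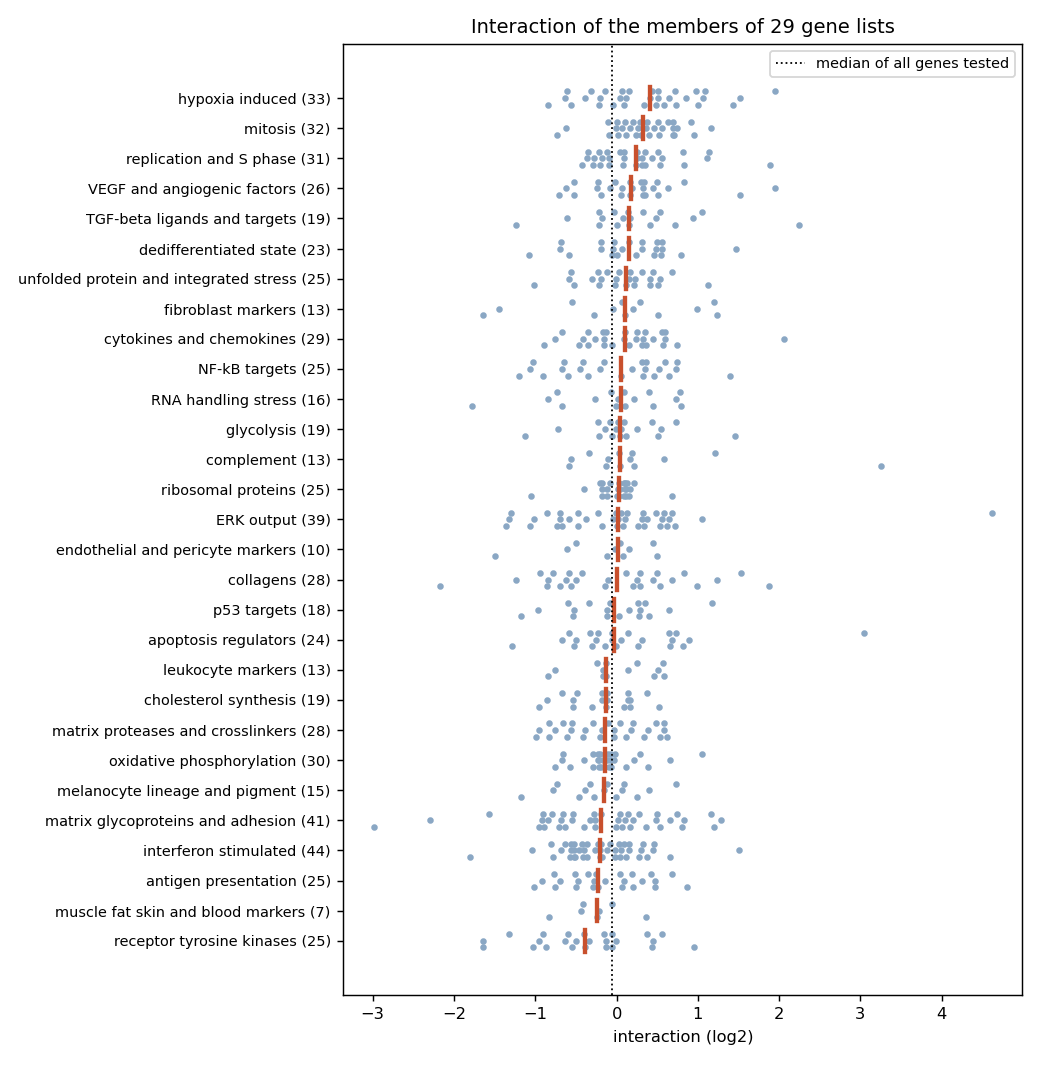
Interaction (log2, x axis) of each measured member of 29 gene lists (points), with the median of each list as a vertical orange bar, the number of genes in brackets and the median of all 14886 genes as a dotted line at -0.05. The hypoxia list is at the top, with a median of 0.41, the receptor tyrosine kinases are at the bottom, with -0.39, and the members of every list spread to both sides of 0.

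Lists of housekeeping processes were measured most precisely. For 25 ribosomal protein genes the median interaction was 0.04, and 20 had a 95% interval within a log2 difference of 1 on either side of 0. For 30 oxidative phosphorylation genes it was -0.14, with 24 below 0 (80%, beside 54% of all genes) and 17 such intervals. The ATP synthase gene ATP5MC1 (-0.66 ± 0.28) was the only member at an unadjusted p below 0.05, although its second probe, detected on all arrays, gave 0.40. In the apoptosis and complement lists single members stood out. CASP8, the initiator caspase of death receptors, gave 3.04 ± 0.84 and the complement protease gene C1R 3.25 ± 1.17, but both were high in PLX4720 replicate 2 (7.31 and 8.30) and low in replicates 1 and 3 (5.53 and 4.86 for CASP8, 5.02 and 5.88 for C1R), where neither probe was detected. CASP8 was at 7.05, 7.51 and 7.16 in vehicle, 5.23, 6.83 and 5.88 in bevacizumab and 7.58 and 7.78 in COMBO, which put COMBO above all other arrays. For CASP8 a second detected probe gave 1.63, and for C1R 3.60. Melanocyte lineage genes had a median of -0.16, with 0.07 ± 0.49 for MITF, and KISS1, a metastasis suppressor gene that fell both without and with bevacizumab, was undetected on the PLX4720 arrays and has no interaction fold.

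Bevacizumab changed no gene that passed the test without PLX4720 and IPO7 alone with it. No gene was called for bevacizumab minus vehicle by limma, with 353 (2.37%) at an unadjusted p below 0.05, and for COMBO minus PLX4720 IPO7 was the only call, with 1083 (7.28%) at that p. These contrasts also share no array. Across genes their Pearson correlation was -0.08 and their Spearman correlation -0.08. Without PLX4720 replicate 3 and bevacizumab replicate 1 the values were -0.07 and -0.06. Bevacizumab minus vehicle had an SD across genes of 0.303, beside a median standard error of 0.297. With differences so near their error, these correlations cannot tell whether bevacizumab effects with and without PLX4720 are related.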

How the data were processed

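Total RNA of 11 tumors, purified with miRNeasy kits, was hybridized to Illumina HumanHT-12 v4 arrays. The authors exported mean bead signal intensity per probe and a detection p-value against negative control beads with GenomeStudio 2011.01, and deposited both without normalization, 1 column per array. They also deposited intensities after cubic spline normalization, used here as an alternative. Background handling in the export is not given in the sources used here, and bead number limits the precision of each value.

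The function neqc of limma 3.58.1 in R 4.3.3 subtracted background by normexp, with the distribution of negative controls derived from detection p-values and an offset of 16, equalized the arrays by quantiles and took log2. Of 47323 probes, the platform annotation gave 30113 a single symbol, 8 several and 17202 none. Probes with a detection p-value below 0.05 on at least 1 array were kept, and the brightest probe stood for a gene. A linear model over 4 arms with empirical Bayes moderation gave each contrast, and Benjamini-Hochberg adjustment ran over 14886 genes. Scripts were tested on simulated data. The study's methods call the arrays biological replicates.

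The members, gene lists and alternatives were chosen with earlier results of these data known. Named genes were, among those detected in every arm, the 12 smallest p values in each direction of the interaction, up to 3 members of each list by p, the 10 largest rises and 10 largest falls under PLX4720 alone without overlap with vehicle, genes called for the interaction, and a fixed set of drug-response genes. Not all genes that the rule selects are named in the text. Genes named beyond that rule were chosen after their values were seen: the nuclear transport receptors other than IPO7, BNIP3, DDIT4, HILPDA, SLC2A1, HK2, P4HA2, ENO2, FAM162A, LAMB2, EIF3C and list members undetected in an arm.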

Additional observations from a re-analysis of the deposited data

Results flagged for a closer look

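IPO7 had a PLX4720 effect with bevacizumab that differed from its effect without it, by the test of the interaction itself (a log2 difference of 3.49, adjusted p = 0.0398 by limma). It fell on 3 of 3 PLX4720 arrays against all vehicle arrays, whereas both COMBO arrays were above all 3 bevacizumab arrays.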

How the results depend on the processing

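The count of 1 gene called for the interaction became 0 with an offset of 1, with no filter on dim probes, with every detected probe tested on its own, with the replicate block and without PLX4720 replicate 3 and bevacizumab replicate 1 together, and it was 157 with the limits of the methods. It was 0 to 30 when 1 array at a time was left out. It was 30 without PLX4720 replicate 2. The 339 calls for PLX4720 minus vehicle became 190 with the replicate block, 1247 without PLX4720 replicate 3 and bevacizumab replicate 1 together and 61 to 839 with 1 array left out. The 54 calls for COMBO minus bevacizumab became 25, 96 and 5 to 142, and the single call for COMBO minus PLX4720 became 0, 2 and 0 to 243. The labels do not say whether same-numbered arrays share a batch, and they were treated as unpaired. Of 15 correlations between deviations of same-numbered arrays, 3 were above 0.1 (range -0.472 to 0.266). Deviations from arm means of so few arrays cannot exclude pairing. The cause of these changes was not tested, apart from the smaller number of arrays.

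Of 2229 interaction values recomputed for 93 named genes, 2153 kept their direction and side of the threshold, and 57 changed sign, 36 of them with 1 array left out. All of the sign changes belonged to genes whose interaction did not pass. NAT16 was -0.18 with the spline values, -0.25 with no background correction and -0.16 with an offset of 50. MITF was -0.012 with no background correction, -0.088 with array weights and -0.17 without PLX4720 replicate 3 and bevacizumab replicate 1. With median scaling, EIF3C was 0.028, HK2 -0.069, IPO8 -0.012, P4HA2 -0.20 and SLC2A1 -0.22. With the mean of detected probes, DUSP6 was 0.64, SPRY4 0.14 and HK2 -0.14. With array weights, PRG4 was -0.16, EIF3C 0.034 and IPO8 -0.28. Without PLX4720 replicate 3 and bevacizumab replicate 1, PAEP was 0.38, ENO2 0.19, HK2 -0.079 and IPO8 -0.43. With 1 array left out, the range was -1.15 to 0.52 for CCL2, -0.47 to 1.06 for COL1A1, -0.26 to 0.20 for DUSP6, -0.25 to 0.14 for EIF3C, -0.88 to 0.23 for ENO2, -0.12 to 0.34 for HK2, -0.25 to 0.23 for IPO8, -0.38 to 0.52 for MITF, -0.24 to 0.29 for NAT16, -0.40 to 1.49 for NTS, -0.11 to 0.23 for P4HA2, -1.08 to 0.45 for PAEP, -0.011 to 1.21 for PRG4 and -0.37 to 0.56 for SLC2A1.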

Other observations

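Additivity depends on the scale on which it is measured. Taken on linear intensities in place of log2 values, the interaction had the opposite sign for 10 of 93 named genes, among them VCAM1, COL3A1 and DEPP1, and the same sign for the others. The 150 genes for which both COMBO arrays lay above all other arrays included WNT3, a ligand of the Wnt pathway chosen here after its values were seen, with an interaction of 1.75. Among 9087 detected probes that the annotation pairs with no single gene symbol, limma called none for the interaction, and 598 (6.58%) had an unadjusted p below 0.05.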
